A study of Mus musculus with 20 samples.

Results

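The AP-1 and Ier immediate-early genes are 10 genes, Fos, Fosb, Fosl2, Jun, Junb, Jund, Atf3, Ier2, Ier3 and Ier5. They were chosen by name, with earlier results of these data known. All 10 were found among the 15855 genes of the culture scRNA-seq table and among the 15333 genes of the tumor scRNA-seq table. The cultures were 2 libraries of B-MF and 2 of Mo-MF. B-MF are macrophages grown from bone marrow (BM) B cells of naive mice for 7 days in medium of which 50% came from 4T1.2 breast cancer cultures (conditioned medium), and Mo-MF were grown from BM monocytes in the same conditioned medium. The tumor cells were F4/80+CD11b+ cells sorted from 4 mice with 4T1.2 cancer, 1 library each, which carry the library numbers 2 to 5. A further 12 ATAC-seq libraries, 3 each of CSF1R+ and CSF1R- B-cell precursors from BM and spleen of untreated mice, give the open chromatin around their start sites. The methods give young female mice, the labels name no genotype or strain, and the strain behind each culture is not given in the sources used here. Nothing in the labels says whether the 2 libraries of a culture came from separate animals or cultures, so the p-values measure the spread between these libraries, which may be technical.

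AP-1 is a transcription factor made of a pair of basic leucine zipper proteins. Jun proteins (Jun, Junb, Jund) pair with each other or with Fos proteins (Fos, Fosb, Fosl2), and Fos proteins need a Jun partner to bind DNA, while Atf3 is a stress-induced member of the related ATF family that can pair with Jun proteins. Most of these genes are immediate-early genes: growth factors, stress or inflammatory stimuli raise their transcripts within minutes through MAP kinases, serum response factor and CREB/ATF proteins, without new protein synthesis, and the transcripts decay quickly. Ier2, Ier3 and Ier5 were found by the same rapid induction and do not encode bZIP proteins; Ier3 is known for its part in survival under stress and Ier5 for its link to heat shock factor. In macrophages such genes are induced by CSF1, by adhesion and by handling of the cells as well as by inflammatory ligands.

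RefSeq promoters (GRCm38.p6, 250 bases before to 50 after the start) were at hand for 9 of the genes, all but Ier2. The 5 stretches shown are the last 120 bases before the start of those genes whose promoter holds a CRE/ATF-type core, the letters bound by CREB, ATF and some AP-1 pairs. Capitals mark TGACG on either strand or, in Jun, TGACATCA.
Fos: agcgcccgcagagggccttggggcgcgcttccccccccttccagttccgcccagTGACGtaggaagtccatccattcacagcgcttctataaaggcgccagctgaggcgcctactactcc
Fosb: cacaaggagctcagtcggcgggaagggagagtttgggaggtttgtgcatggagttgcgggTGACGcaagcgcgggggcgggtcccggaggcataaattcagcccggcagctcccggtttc
Junb: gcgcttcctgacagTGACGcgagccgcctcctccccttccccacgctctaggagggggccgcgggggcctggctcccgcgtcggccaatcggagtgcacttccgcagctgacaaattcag
Atf3: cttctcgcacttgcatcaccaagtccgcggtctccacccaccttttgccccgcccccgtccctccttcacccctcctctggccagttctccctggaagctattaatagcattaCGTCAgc
Jun: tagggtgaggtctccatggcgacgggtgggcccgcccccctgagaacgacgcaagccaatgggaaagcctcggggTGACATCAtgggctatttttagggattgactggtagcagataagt
They lie at chr12:85473770-85473889 on the plus strand for Fos, chr7:19310046-19310165 on the minus strand for Fosb, chr8:84978749-84978868 on the minus strand for Junb, chr1:191183334-191183453 on the minus strand for Atf3 and chr4:95052223-95052342 on the minus strand for Jun. The first letter of the core lay 66 bases before the start in Fos, 60 in Fosb, 106 in Junb, 7 in Atf3 and 45 in Jun, and Fos had a second TGACG 129 bases before the start. TGACG or its reverse complement was present in 4 of the 9 promoters and in 20.8% of 32851 mouse promoters of this length, and TGACATCA on either strand in 1 of 9 and in 3.62% of all. These 2 letter strings were chosen after the sequences had been seen, and TGACG is contained in the full site TGACGTCA. The full site was in none of the 9 promoters and in 1.79% of all. TGANTCA, a loose form of the classical AP-1 site, was in none and in 7.81% of all. The CArG box of serum response factor was in none and in 1.63% of all. Each was searched on both strands, and sites outside these promoters were not searched. Not all of these starts match the GENCODE starts used for the ATAC-seq peaks below. The last 120 bases before the RefSeq start of Jund end at chr8:70697738, upstream of its GENCODE start at 70698949. Those of Fosl2 end at chr5:32136471, inside the GENCODE gene, which starts at 32135801.

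Before the results, the cells need a description. The culture libraries held 4846 to 5389 cells with medians of 18350 to 19469 corrected counts per cell, and the tumor libraries 2318 to 3180 cells with medians of 7651 to 8266. Between 3 and 28 cell barcodes of a library recurred in another library of the same table. The mitochondrial share of counts was 7.92% and 7.70% for the B-MF libraries, against 5.07% and 5.24% for Mo-MF. All 8 macrophage markers (Adgre1, Csf1r, C1qa and others) were present in both cultures, with summed means of 282 to 293 counts per cell in B-MF and 590 to 600 in Mo-MF, and the 7 B-cell markers summed to 0.463 to 0.493 in B-MF. Clusters with neutrophil markers (neutrophil-like) held 10.3% and 9.45% of Mo-MF cells and 0.0573% and 0% of B-MF cells, and the 8 neutrophil markers summed to 157 and 125 counts per cell in Mo-MF and 1.06 and 0.724 in B-MF. Among the tumor cells, although gated as F4/80+CD11b+, 34.8% to 61.6% were neutrophil-like and 34.4% to 62.5% monocyte/macrophage-like, so levels in whole tumor libraries are those of a mixture. The labels call the ATAC-seq cells macrophages, while the methods describe them as B-cell precursors.

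**Figure D1:**
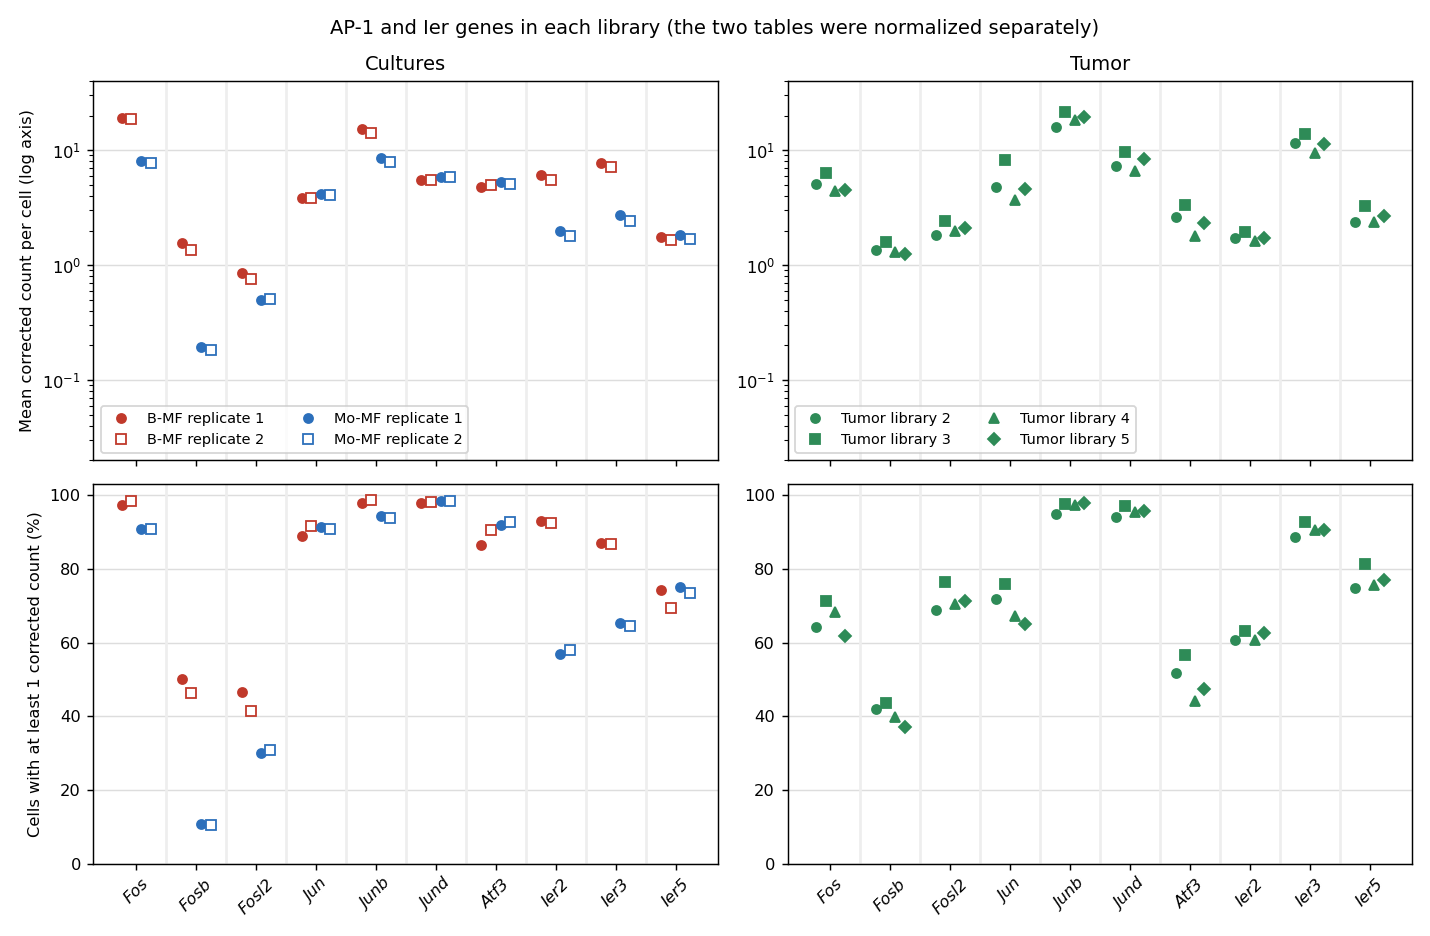
Mean corrected count per cell on a log axis (top) and share of cells with at least 1 corrected count (bottom) for each gene in the 4 culture libraries (left) and the 4 tumor libraries (right), 1 point per library; the tables were normalized separately, so heights are not compared between left and right. Fos, Fosb, Fosl2, Junb, Ier2 and Ier3 separated B-MF from Mo-MF, while Jun, Jund, Atf3 and Ier5 lay close together.

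The first question was whether macrophages from B cells and from monocytes, made in the same medium, differ in these genes. Of the 10 genes, 6 were higher in B-MF than in Mo-MF and none was lower (limma on log2 of the mean count + 0.1, adjusted p below 0.05 over 8633 genes). Of all genes tested, 22.6% were higher and 16.9% lower, with a median log2 difference of 0.02. The 10 genes were chosen with earlier results of these data known. The paper had already named Ier2 and Ier3 among the main genes that set B-MF apart. The count is therefore a description and not an independent test. The 6 were the 3 Fos-family genes, Junb, Ier2 and Ier3. The 4 that did not pass were Jun, Jund, Atf3 and Ier5. The division therefore ran through both the Jun family and the Ier genes.

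Among the Fos genes, which supply the partner that stabilises AP-1, Fos had mean corrected counts of 18.9 (replicate 1) and 18.5 (replicate 2) in B-MF against 8.11 and 7.77 in Mo-MF. Its log2 difference was 1.23 (SE 0.05, adjusted p = 8.47e-07, limma). Fosb, whose transcript is close to absent in many resting cells, averaged 1.56 and 1.37 in B-MF against 0.196 and 0.182 in Mo-MF. The log2 difference was 2.44 (SE 0.07, adjusted p = 1.23e-07, limma), and Fosb ranked 4 of the 8633 genes from the highest difference. Fosl2, the Fos-related antigen Fra-2 with slower kinetics, averaged 0.862 and 0.756 against 0.499 and 0.508, a log2 difference of 0.59 (SE 0.07, adjusted p = 0.000223, limma). All 3 were thus higher, by sizes that differed among them. With a pseudocount of 1 the log2 difference of Fosb was 1.05, below the 1.14 of Fos, and that of Fosl2 was 0.27, all still called. With the mean of log2(1 + count) over cells Fosb had 0.72 and Fos 1.33. The order of Fos and Fosb thus depended on the scale.

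In the Jun family only Junb passed the test. Junb, which can replace or oppose Jun at AP-1 sites, averaged 15.2 and 14.1 in B-MF against 8.51 and 7.87 in Mo-MF, with a log2 difference of 0.83 (SE 0.06, adjusted p = 2.49e-05, limma). Jun averaged 3.8 and 3.87 against 4.15 and 4.06 (log2 difference -0.10, SE 0.05, adjusted p = 0.163, limma). Jund, the member usually found at steady levels without stimulation, averaged 5.54 and 5.52 against 5.87 and 5.86 (log2 difference -0.08, SE 0.05, adjusted p = 0.212, limma). Neither difference was called. The library means of both lay a little lower in B-MF without overlap, but the share of all genes that separate in this way was not counted. Junb made up 62.0% and 59.9% of the counts of the 3 Jun genes in B-MF, against 45.9% and 44.2% in Mo-MF, while Jund made up 22.6% and 23.6% against 31.7% and 32.95%; these shares rest on 3' end counts, which are not scaled by length.

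Atf3 followed Jun and not the Fos genes. It averaged 4.78 and 4.95 counts per B-MF cell against 5.29 and 5.11 per Mo-MF cell (log2 difference -0.10, SE 0.05, adjusted p = 0.184, limma). Single Mo-MF cells reached 384 counts in replicate 1 and 191 in replicate 2, whereas no B-MF cell exceeded 42. Jun, Jund and Atf3 were each called lower in B-MF, by 0.07 to 0.13 on the log2 scale, under 3 alternatives, namely a pseudocount of 1, centring on the median gene and averaging log counts.

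Among the Ier genes, Ier2 averaged 6.12 and 5.54 counts per B-MF cell against 1.97 and 1.79 per Mo-MF cell. Its log2 difference was 1.58 (SE 0.07, adjusted p = 9.41e-07, limma). Ier3 averaged 7.79 and 7.16 against 2.76 and 2.44, a log2 difference of 1.49 (SE 0.07, adjusted p = 1.86e-06, limma). Neither gene overlapped between the groups. The share of all genes whose library means separate the groups was not counted. Ier5 averaged 1.77 and 1.64 against 1.84 and 1.69, with a log2 difference of -0.05 (SE 0.06, adjusted p = 0.601, limma), and its libraries overlapped. In the larger neutrophil-like cluster of Mo-MF, Ier2 averaged 11.1 and Ier5 5.06 counts. Monocyte/macrophage-like cells of Mo-MF alone averaged 1.25 and 1.19 for Ier2, 1.58 and 1.5 for Ier5, and 2.12 and 1.89 for Ier3. Without clusters of other cell types the log2 difference was 2.17 for Ier2 and 1.85 for Ier3, both called, and 0.13 for Ier5, which was not called (adjusted p = 0.101, limma). Without cells above 10% mitochondrial counts the same 6 genes were called higher.

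**Figure D2:**
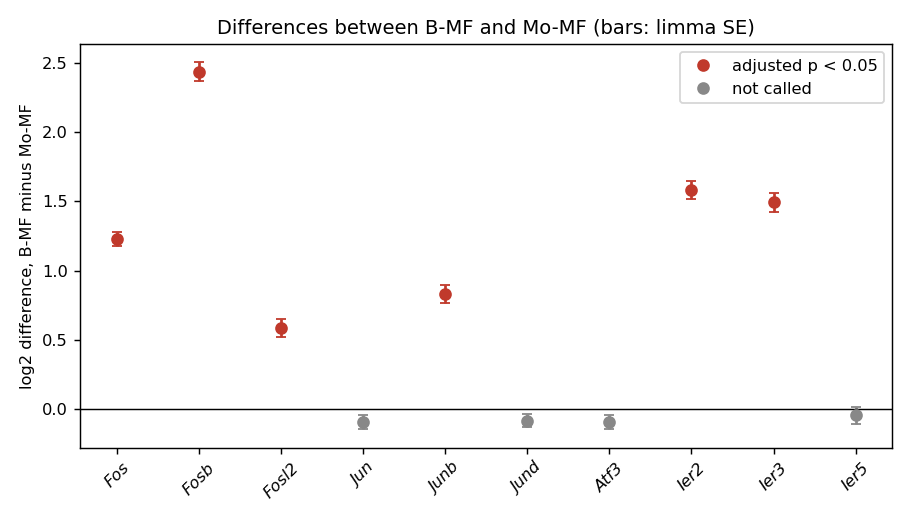
Difference between B-MF and Mo-MF for each gene on the log2(mean corrected count + 0.1) scale, with 2 libraries per group and bars of 1 limma SE. The 6 red points (0.59 to 2.44) passed an adjusted p of 0.05, and the 4 grey points lay between -0.10 and -0.05.

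The share of cells with at least 1 corrected count differed as well. Fosb was found in 50.3% and 46.4% of B-MF cells against 10.9% and 10.5% of Mo-MF cells. Ier2 was found in 93.0% and 92.5% against 57.04% and 58.03%, and Ier3 in 86.9% and 86.7% against 65.2% and 64.6%. For these 3 genes a large part of the Mo-MF cells had a corrected count of 0. Fosl2 was found in 46.7% and 41.4% against 30.1% and 30.8%. Fos and Junb were found in over 90% of cells in every culture library, and their difference was one of level: the median cell held 17 counts of Fos in both B-MF libraries and 5 in both Mo-MF libraries, and 13 and 12 counts of Junb against 6 and 6. The shares of 6 genes lay higher in both B-MF libraries than in both Mo-MF libraries, as did those of 26.8% of genes, and the shares of 2 genes (Jund and Atf3) lay lower, as did those of 26.0% of genes. The 95% Wilson intervals of these shares reached at most 1.39 percentage points to either side in the cultures and 2.02 in the tumor, and cover counting error alone. All these shares are of corrected counts and not rates of raw detection, as raw counts were not seen. In a culture cluster of 982 cells with a mitochondrial share of 19.9%, Ier2 was found in 99.1% to 100% of cells by library. Its means there ran from 1.83 to 4.35 counts. Among all monocyte/macrophage-like cells of Mo-MF it was found in 52.3% and 54.1%, at means of 1.25 and 1.19.

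The counts were also concentrated in unequal ways. The top 10% of cells held 95.4% and 96.9% of Fosb counts in Mo-MF and 48.0% and 49.6% in B-MF. As only 10.9% and 10.5% of Mo-MF cells had any Fosb count, these Mo-MF values restate the share of positive cells. For Ier2 they held 56.3% and 54.4% in Mo-MF and 28.9% and 28.2% in B-MF, and for Ier3 51.9% and 50.01% against 38.9% and 38.5%. For Jund, found almost everywhere, they held 22.5% to 23.7% in all 4 libraries. Neutrophil-like cells, 10.3% and 9.45% of the Mo-MF libraries, averaged 8.08 and 7.47 counts of Ier2, 8.19 and 7.55 of Ier3 and 0.648 and 0.617 of Fosb in the 2 Mo-MF libraries, and their part in these shares was not tested.

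No cell type here is known to lack these genes, so no share could be set as free-RNA background. The lowest share in a culture cluster of at least 50 cells was 1.45% for Fosb and 5.58% for Fosl2, both in a cluster led by Fth1 and Fabp4 whose mitochondrial share was 0.462%. The lowest share of Ier2 was 40.2% and that of Ier3 47.5%, both in the largest Mo-MF cluster. Drawing 5000 corrected counts from each cell lowered the shares of Ier2 to 68.0% and 66.5% in B-MF and to 28.2% and 27.6% in Mo-MF. These counts were already scaled across cells, with at least 14538 in every culture cell. The draw therefore cannot show whether raw sequencing depth plays a part in the order of the groups.

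**Figure D3:**
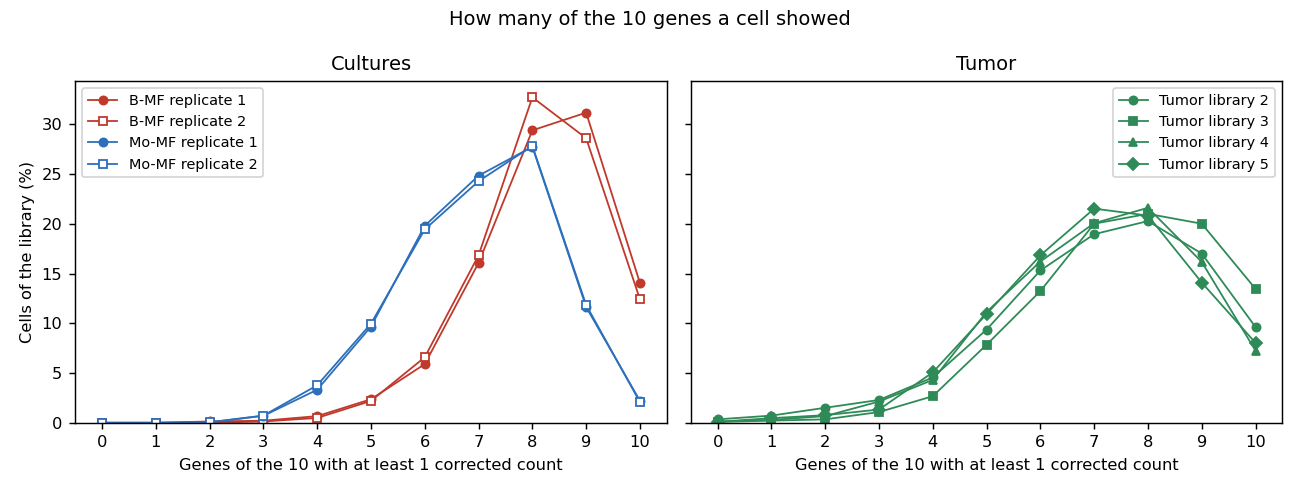
Share of the cells of each library (vertical axis, %) by how many of the 10 genes had at least 1 corrected count (horizontal axis), cultures left and tumor right. B-MF curves lie to the right of Mo-MF curves; all 10 genes were seen in 14.1% and 12.4% of B-MF cells and in 2.21% and 2.08% of Mo-MF cells.

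Counting the genes in each cell gave the same order. The mean number per cell is the sum of the shares of positive cells, so this order is not a separate result. The median B-MF cell showed 8 of the 10 genes and the median Mo-MF cell 7. Cells with 5 genes or fewer made up 3.38% and 2.82% of B-MF and 13.7% and 14.5% of Mo-MF. By corrected counts, every culture cell showed at least 1 Jun-family gene. A Fos-family gene was found in 98.3% and 98.9% of B-MF cells and in 93.4% and 93.2% of Mo-MF cells. Cells with Jun-family but no Fos-family transcripts were therefore 1.70% and 1.13% of B-MF and 6.64% and 6.75% of Mo-MF. In the tumor libraries they were 5.74% to 10.5%.

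Within each library, the genes were then compared from cell to cell by Spearman's rho, as a description across cells of 1 library that share depth and processing. In the cultures, 5 of the 45 pairs had a mean rho above 0.3, and all 5 joined Fos, Junb, Ier2 and Ier3. They were Junb with Ier2 (0.470), Fos with Junb (0.455), Ier2 with Ier3 (0.436), Junb with Ier3 (0.406) and Fos with Ier2 (0.380). Junb with Ier2 ranged from 0.445 to 0.499 over the 4 libraries. In monocyte/macrophage-like cells alone, the mean of Junb with Ier2 was 0.425 and its lowest value 0.355, Ier2 with Ier3 ranged from 0.324 to 0.476 and Junb with Ier3 from 0.327 to 0.421. The pair of Fosb and Junb had 0.343 and 0.332 across B-MF cells, and 0.191 and 0.183 across Mo-MF cells, most of which tie at a Fosb count of 0, so these values are not compared. The 5 pairs with the highest rho of each culture library thus joined only 4 of the 6 genes that differed between the cultures. Fos with Ier3, the remaining pair of these 4 genes, was less closely tied. Its rho across B-MF cells was 0.328 in replicate 1 and 0.282 in replicate 2, below that of Fosb with Junb.

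Jun and Atf3 stood apart from this group. Jun with Atf3 had a mean rho of 0.211 in the cultures, with 0.252 and 0.254 in Mo-MF and 0.170 and 0.165 in B-MF. Jun with Junb had -0.075, below 0 in all 4 libraries, and Atf3 with Ier3 had -0.161, also below 0 in all 4. These were the only 2 pairs below 0 throughout. Jun and Junb, both partners in AP-1, thus did not rise together in these cells. The highest mean rho was 0.146 for Jund and 0.166 for Ier5.

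**Figure D4:**
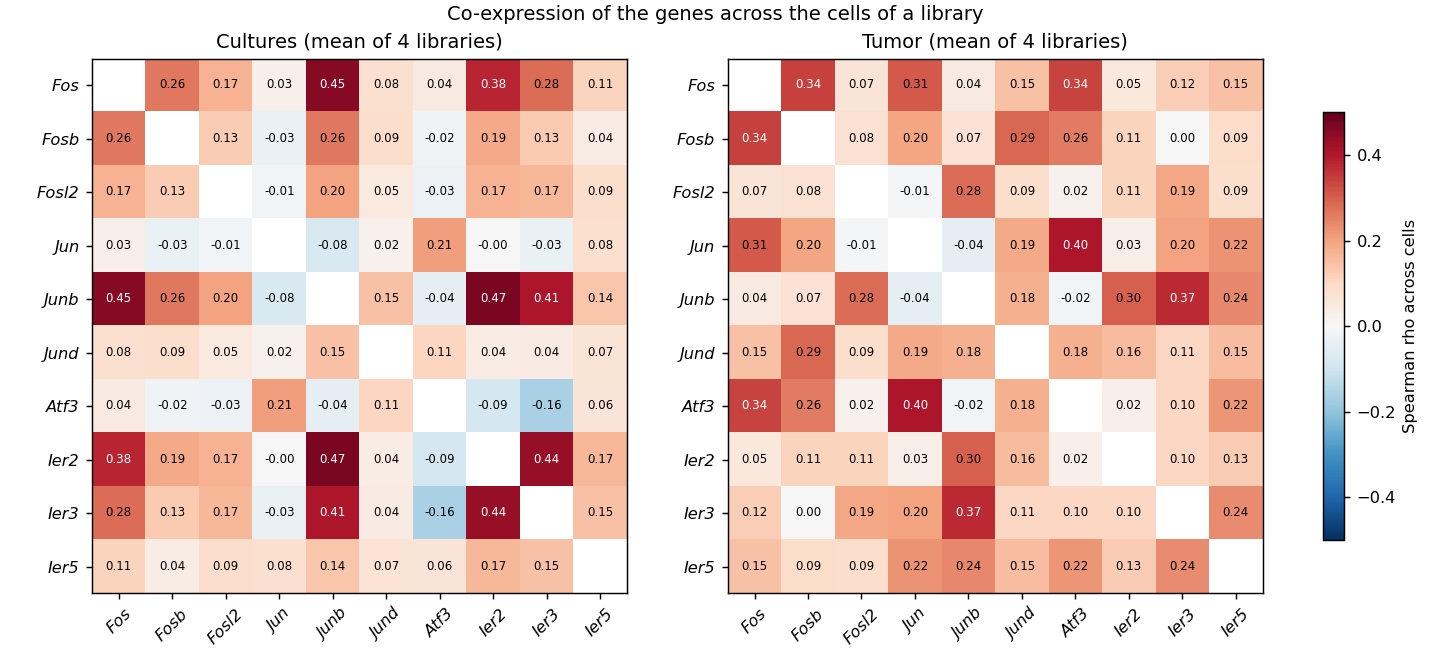
Spearman rho across the cells of a library for each pair of genes, averaged over the 4 culture libraries (left) and the 4 tumor libraries (right); red is positive and blue negative. In the cultures the high values join Fos, Junb, Ier2 and Ier3, and in the tumor Jun with Atf3 (0.40) and Junb with Ier3 (0.37) are highest.

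In the tumor libraries the pairing was arranged differently. The highest mean rho was that of Jun with Atf3 at 0.404 (0.357 to 0.444 over the 4 libraries). Fos went with Fosb (0.343), Atf3 (0.338) and Jun (0.307), while Fos with Junb, one of the leading pairs in culture, had 0.044. Junb went with Ier3 (0.372), Ier2 (0.301) and Fosl2 (0.279). Within monocyte/macrophage-like cells alone, Fos with Junb had 0.233, and within neutrophil-like cells -0.00075 (-0.0196 to 0.0411 over the 4 libraries). Jun with Atf3 was present within both classes, at 0.352 in monocyte/macrophage-like and 0.433 in neutrophil-like cells. Over all 45 pairs the median rho averaged 0.0944 in the cultures and 0.144 in the tumor libraries.

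Genes outside the 10 were then ranked by their likeness to them, as Pearson r across cells between ln(1 + count) of a gene and the mean of the 10, averaged over the 4 libraries of a table. In the cultures, Egr1, a zinc finger immediate-early factor, came first of 8619 genes (0.602), followed by Btg2 (0.568), an antiproliferative early gene, and Zfp36 (0.534), which encodes the mRNA decay factor tristetraprolin. Cebpb, Picalm, Il1b, Pim1 and Srgn followed at 0.366 to 0.473. In the tumor, Dusp1, a MAP kinase phosphatase, came first of 5895 genes (0.530), followed by Klf6 (0.468), Klf2 (0.450), Ifrd1, Mcl1, Zfp36, Rhob and Ppp1r15a (0.422). Zfp36 was the one gene on both lists. Of the 8 culture genes, Egr1, Btg2, Zfp36 and Picalm were higher in B-MF, Cebpb and Srgn lower, and Il1b and Pim1 not called.

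Related gene lists, also chosen with earlier results of these data known, gave the setting. Of 31 other immediate-early genes, 28 were expressed enough to test, and 20 were higher in B-MF, 5 lower and 3 not called, with a median log2 difference of 0.39 beside 0.02 over all genes. Nr4a1, an orphan nuclear receptor, averaged 1.32 and 1.20 counts in B-MF against 0.0997 and 0.0857 in Mo-MF (log2 difference 2.82, SE 0.06). Egr1 had a log2 difference of 2.51 (SE 0.07) and Egr3 of 2.15 (SE 0.07), and these 3 genes took the ranks 2, 3 and 9 of all genes. Egr3 averaged 0.0650 and 0.0518 counts in Mo-MF. Nr4a1 and Egr3 were thus below the minimum mean of 0.1 in Mo-MF and passed that filter only through B-MF. Their differences and ranks depend on the pseudocount of 0.1. In the other direction Gadd45b, a stress gene, had -1.28 (SE 0.06), the kinase gene Sgk1 -1.05 (SE 0.06) and Klf10 -0.42 (SE 0.06). Early genes were thus not uniformly higher in B-MF.

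Of 20 further bZIP genes tested, 2 were higher and 7 lower, with a median of -0.01. Maf, a macrophage identity factor, had a log2 difference of 0.92 (SE 0.05), and Nfe2l2, the oxidative stress factor Nrf2, 0.38 (SE 0.05). Ddit3, the stress factor CHOP, had -1.44 (SE 0.05), Atf5 -0.82 (SE 0.07) and Atf1 -0.66 (SE 0.05). Of 23 tested genes of the MAP kinase and serum response input, 4 were higher and 6 lower, with a median of -0.03. Mapk14, the p38 alpha kinase, had 0.20 (SE 0.05), Braf -0.33 (SE 0.06) and Map3k8 -0.26 (SE 0.06). Of 9 MAP kinase phosphatases and feedback inhibitors, 6 were higher and 1 lower, with a median of 0.32; Dusp5, a nuclear ERK phosphatase, had 1.52 (SE 0.07), Dusp6, a cytoplasmic one, 0.98 (SE 0.06), Spred1 0.75 (SE 0.05) and Dusp3 -0.17 (SE 0.05).

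Of 20 commonly cited AP-1 targets, 9 were higher, 5 lower and 6 not called, with a median of 0.00. Ccnd1, the G1 cyclin, had a log2 difference of 1.18 (SE 0.06), Hbegf 0.77 (SE 0.05) and Ccl2, a monocyte chemokine, 0.71 (SE 0.05). Mmp14 (-2.86, SE 0.05) and Mmp9 (-1.48, SE 0.08), both matrix protease genes, and the chemokine gene Cxcl2 (-0.60, SE 0.10) were lower. Hbegf in Mo-MF (0.0776 and 0.0833 counts) and Mmp14 in B-MF (0.0342 and 0.0304 counts) lay below the minimum mean of 0.1. Both passed that filter only through the other culture, so their differences depend on the pseudocount. Every named list gene passed the same limma test. Of 10 heat shock genes 2 were higher, Hspa8 by 0.27 (SE 0.05) and Hsp90ab1 by 0.19 (SE 0.05), and none was lower, with a median of 0.04.

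Because early genes respond to handling, measures of cell state were set beside them. The summed heat shock list, a common sign of dissociation stress, averaged 64.4 and 65.1 counts per B-MF cell against 57.4 and 58.4 per Mo-MF cell. Across cells its Pearson r with the 10 genes was -0.253 to -0.175 in the 4 culture libraries and 0.0673 to 0.283 in the 4 tumor libraries. The 10 genes had r of -0.0415 to -0.0178 with the mitochondrial share in the cultures, and of -0.423 to -0.219 with the total count of a cell. The part of handling, depth or cell quality in these culture differences was not tested. Fewer positive cells and less RNA per cell cannot be told apart in the library means.

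The culture clusters, made without these genes among the variable genes, showed how levels were spread; their values are a description. B-MF divided mainly into 2 clusters. The larger, led by Pf4 and Egr1 and holding 2548 and 2829 B-MF cells, averaged 23.8 and 22.2 counts of Fos and 11.7 and 10.1 of Ier3 in the 2 libraries. The other, led by Myc and Cdkn2a with 1970 and 1901 cells, averaged 15.6 and 15.3 of Fos and 4.05 and 3.69 of Ier3. Fos was thus high in both, and Ier3 mainly in the first. The largest Mo-MF cluster, 3569 cells led by Arg1 and Fn1, averaged 6.69 counts of Fos, 0.761 of Ier2 and 1.12 of Ier3, but 6.65 of Atf3. In its 2 Mo-MF libraries Atf3 averaged 6.79 and 6.53, beside 7.96 and 6.32 in the Mo-MF cells of a cluster of cycling cells. In the Arg1-led cluster, high Atf3 therefore stood beside low Ier2 and Ier3.

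Not all Mo-MF cells were low. A cluster of 120 Mo-MF cells (58 and 62) led by the monocyte genes Ccr2, Vcan, Chil3 and Ly6c2, with no B-MF cell in it, had the highest Fos of any culture cluster, 47.4 and 41.5 counts in the 2 libraries. It was also highest in Junb (31.7), Ier3 (16.1; 19.9 and 12.6 by library), Ier5 (5.36) and Fosl2 (2.27), in each of the 2 Mo-MF libraries, while Jun averaged 5.57 and 4.53. Fosb, in contrast, averaged 0.208 in that cluster, below the 1.78 of the larger B-MF cluster. In a cluster of high mitochondrial share (19.9%) that drew on all 4 libraries, Fosb averaged 2.51 and 1.61 in the B-MF cells and 0.265 and 0.33 in the Mo-MF cells. The neutrophil-like cluster of 516 cells had the highest Jund in both Mo-MF libraries (9.58 and 8.53). Ier2 averaged 11.5 and 10.7 there and 12.8 and 9.19 in the Ccr2-led cluster, so their order differed between the libraries.

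**Figure D5:**
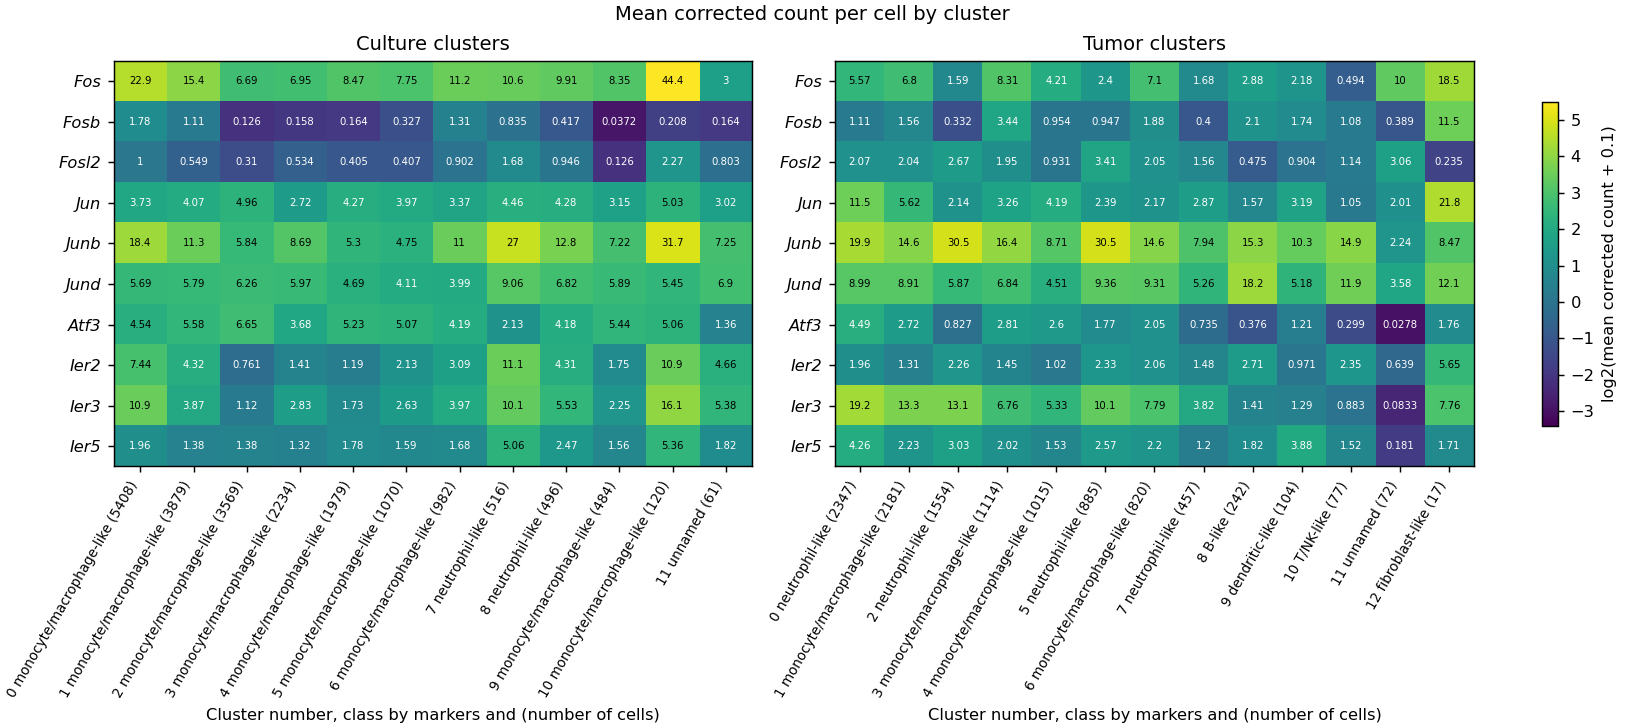
Mean corrected count of each gene in each cluster of the cultures (left) and the tumor (right), printed in each field and coloured as log2(mean + 0.1); the number of cells follows each cluster's name. Fos, Junb and Ier3 peak in the Ccr2-led Mo-MF cluster of 120 cells, and in the tumor Ier3 and Atf3 are near 0 in the Ctsk-led cluster of 72 cells, which has the highest Fos (10.0) of clusters with at least 50 cells.

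In the tumor libraries, all 10 genes were present in every library. Fos averaged 5.09, 6.29, 4.39 and 4.47 counts in libraries 2 to 5, Junb 15.9, 21.4, 18.2 and 19.4, and Ier3 11.5, 13.8, 9.40 and 11.4. Jun averaged 4.77, 8.30, 3.67 and 4.59. Library 3 was the highest for all 10 genes. It also had the largest neutrophil-like share (61.6%) and the smallest monocyte/macrophage-like share (34.4%). Among neutrophil-like cells alone, library 3 was again the highest for all 10 genes. Among monocyte/macrophage-like cells alone, it was the highest for all but Junb, Ier2 and Ier3. The part of the cell mixture in this order was not tested. The share of all genes that were highest in library 3 was not counted. Atf3 averaged 2.63, 3.33, 1.79 and 2.34, Jund 7.35, 9.58, 6.65 and 8.35, and Ier5 2.39, 3.29, 2.38 and 2.70. Fosl2 averaged 1.82, 2.42, 1.98 and 2.12, Fosb 1.36, 1.60, 1.30 and 1.26, and Ier2 1.72, 1.96, 1.64 and 1.73. Within the Fos family, Fos supplied 56.96% to 61.6% of the counts and Fosl2 22.1% to 27.0%, whereas in the cultures Fosl2 supplied 3.66% to 6.01%. Since the tables were normalized separately, these shares within a table are set side by side without a test. The tumor shares are also those of the cell mixture. Fosl2 averaged 1.57 to 2.10 counts beside 6.04 to 8.69 of Fos in monocyte/macrophage-like tumor cells. In neutrophil-like cells it averaged 2.25 to 2.68 beside 2.48 to 5.07 of Fos. The part of the mixture in these shares was not tested.

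The share of positive tumor cells, measured at a lower depth, differed from gene to gene. Fos was found in 64.1%, 71.4%, 68.4% and 61.8% of cells, Atf3 in 51.8%, 56.7%, 44.0% and 47.3%, and Ier3 in 88.7%, 92.9%, 90.7% and 90.5%. All 10 genes were found together in 7.25% to 13.5% of tumor cells and none in 2 to 11 cells of a library.

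The 2 main classes of tumor cells differed in opposite directions for different genes; the classes come from the same cells, so no test is given. Fos averaged 2.48, 5.07, 2.80 and 3.34 counts in neutrophil-like cells of libraries 2 to 5 and 6.5, 8.69, 6.04 and 6.19 in monocyte/macrophage-like cells, a mean log2 difference of -1.02 (SD 0.26, n = 4 libraries). Fosb had -1.28 (SD 0.37). Junb averaged 22.7, 25.6, 22.3 and 23.8 against 12.4, 14.9, 15.1 and 14.3, a log2 difference of 0.74 (SD 0.13). Fos and Junb, a pair that rose together in the cultures, thus lay on opposite sides. Ier5 (0.64, SD 0.10), Ier3 (0.62, SD 0.16), Ier2 (0.53, SD 0.16), Jun (0.47, SD 0.11) and Fosl2 (0.36, SD 0.13) lay on the side of Junb by their means. The share of Jun-positive cells was 61.5% to 73.9% in neutrophil-like and 70.9% to 82.6% in monocyte/macrophage-like cells. The median of its library means was 10.4 in the largest neutrophil-like cluster and 2.18 to 2.27 in the other neutrophil-like clusters. It was 2.06 to 5.15 in the monocyte/macrophage-like clusters.

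Neutrophil-like cells were higher in all 4 libraries for 6 genes, as for 20% of 5905 genes, and lower in all 4 for 3 genes (Fos, Fosb and Atf3), as for 70.3%. Most genes were lower in neutrophil-like cells, with a median log2 difference of -0.55. Atf3 differed by only -0.04 (SD 0.04) and Jund by -0.03 (SD 0.09). Centred on the median gene, 8 genes were higher (background 44.1%) and 2 lower, Fos and Fosb (background 43.8%), so the direction of Atf3 depended on the centring while those of Fos and Fosb did not. Among the 5905 genes Fosb stood at the 19.7 percentile of this difference, Fos at 29.6 and Junb at 93.3.

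Single tumor clusters went further. The largest neutrophil-like cluster (2347 cells) had the highest Jun (11.5), Ier3 (19.2), Ier5 (4.26) and Atf3 (4.49) among clusters of at least 50 cells. Another, led by the interferon gene Ifit1 (1554 cells), had high Junb (30.5) with low Fos (1.59), Jun (2.14) and Atf3 (0.827). A cluster led by MHC class II genes (1114 cells) had the highest Fosb among clusters of that size (3.44), with 8.31 counts of Fos; a fibroblast-like cluster of 17 cells from 2 libraries had 11.5 of Fosb, 18.5 of Fos and 21.8 of Jun. B-like cells (242) had the highest Jund (18.2) and low Ier3 (1.41). The genes thus peaked in at least 3 different kinds of tumor cells.

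An unnamed cluster of 72 tumor cells, led by Ctsk, Acp5 and Atp6v0d2, genes known from osteoclasts, divided the set. It averaged 10.0 counts of Fos (7.67 to 11.4 over the 4 libraries) and 3.06 of Fosl2. Ier3 was seen in 2 of its 72 cells (2.78%, 95% Wilson interval 0.765% to 9.57%) and Atf3 in 1 (1.39%, interval 0.246% to 7.46%), although its cells had a median of 8524 counts. The 2 largest tumor clusters had Ier3 at 19.2 and 13.3 counts per cell. Ier5 (0.181) and Ier2 (0.639) were also low, and Junb averaged 2.24. The 27, 10, 21 and 14 cells came from all 4 libraries. These intervals cover counting error within a cluster that was found from the same cells.

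Finally, the ATAC-seq peaks were read at the start of each gene (GENCODE vM21 on GRCm38, the sequence of mm10), where a peak's fold is its enrichment over local background as MACS2 gave it. A peak lay within 1000 bases of the start in all 12 libraries for 8 of the 10 genes, beside 47.9% of 21951 protein-coding genes. Fos (chr12:85473890-85477273, plus strand) had the folds 11.2, 10.7 and 8.61 in CSF1R+ BM, 10.5, 10.8 and 9.22 in CSF1R- BM, 12.3, 12.9 and 11.8 in CSF1R+ spleen and 11.8, 12.2 and 12.1 in CSF1R- spleen. Fosb (chr7:19302696-19310051, minus strand) went the other way by tissue, with group means of 8.32 and 8.27 in BM and 6.49 and 6.48 in spleen. For both genes BM and spleen did not overlap, and CSF1R+ and CSF1R- cells did. How many of all genes separate BM from spleen in this way was not counted. The tissues also differed in the number of peaks per library, 65832 to 76530 in BM and 43407 to 50392 in spleen. The folds were not normalized between libraries here, so no test was made.

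The other open start sites were Jun (chr4:95049034-95052222, folds of 7.03 to 8.24), Junb (chr8:84974484-84978718, 5.66 to 6.60), Jund (chr8:70698949-70700616, 5.97 to 7.24), Ier2 (chr8:84661331-84662852, 5.83 to 7.19), Ier5 (chr1:155096361-155099636, 9.43 to 13.8) and Fosl2 (chr5:32135801-32157842, 6.27 to 10.3). In spleen, Fosl2 averaged 9.09 (SD 1.10, n = 3) in CSF1R+ and 6.81 (SD 0.68, n = 3) in CSF1R- cells, and in BM 7.60 (SD 1.07, n = 3) and 8.50 (SD 0.45, n = 3), the opposite order. Within 500 bases of the start, 7 of the 10 genes had a peak in all 12 libraries, beside 45.9% of all genes. Fosl2, Atf3 and Ier3 did not, so the folds of Fosl2 rest at least partly on peaks farther from its start. The start of Ier3 (chr17:35821684-35822923) had a peak in 10 of 12 libraries, with folds of 3.0 to 6.06, and lacked one in CSF1R- spleen replicates 2 and 3. Atf3 (chr1:191170296-191218039, minus strand) had none in any library at the gene's outermost start, but had one in all 12 at the start of another of its protein-coding transcripts, a position looked at after the data had been seen; the RefSeq promoter printed for Atf3 also lies inside the GENCODE gene. Genes that were higher in B-MF and genes that were not thus both had open start sites in the precursors. Leaving Atf3 aside, Ier3 had the lowest folds.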

How the data were processed

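The report covers 4 culture libraries and 4 tumor libraries of 10x scRNA-seq and 12 ATAC-seq libraries. The members and the gene lists were chosen with earlier results of these data known. The scRNA-seq values as deposited by the authors are the natural log (ln) of 1 + the count corrected by SCTransform in Seurat, after alignment with Cell Ranger and a minimum of 1000 genes per cell; each was turned back into a whole corrected count. Such counts are already scaled across cells, so no count model was used. The labels name another kit for scRNA-seq than the methods, which give a 10x 3' kit. Tumor libraries carry numbers that differ from those of the labels and were mapped only to their group.

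Library means over cells were compared with limma 3.58.1 (R 4.3.3) on log2(mean + 0.1) over 8633 genes with a mean of at least 0.1, two-sided, with Benjamini-Hochberg adjustment at 0.05. In simulated data for B-MF against Mo-MF, run on 8633 genes, 200 of 200 genes changed by 1 on the log2 scale were called, with 10 false calls. A positive cell has a corrected count of at least 1, so shares of positive cells are not rates of raw detection. Clusters (Leiden, leidenalg 0.10.2, resolution 0.5, 30 components, 20 neighbours, 2000 variable genes without the 10 genes and other early genes) were named by marker genes under a rule set after the data were seen. No doublet caller was run. Named were all 10 genes, the 3 highest and 3 lowest called genes of each list, and the 8 genes most like the 10; some list genes that this rule names are not reported here.

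ATAC-seq peaks were called per library with MACS2 by the authors, after cutadapt and BWA to mm10. Each deposited peak has a fold enrichment (ratio) and a −log10 q-value. Promoters are RefSeq sequences of GRCm38.p6. Depth ran from 92117001 to 102178766 corrected counts per culture library and from 18261208 to 25744246 per tumor library. Alternatives were other pseudocounts, filters, scalings and cell selections, each library left out, other clustering resolutions, and other windows and thresholds for peaks; the starts of all transcripts and the centring of the tumor classes were added after seeing the data.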

Additional observations from a re-analysis of the deposited data

How the results depend on the processing

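The 6 higher genes (Fos, Fosb, Fosl2, Junb, Ier2, Ier3) were called in all 14 alternatives. The number of the 10 genes called lower, 0 as reported, was 3 with log2(mean + 1), 1 with no filter on low values, 2 with a mean of at least 0.5, 3 when centred on the median of all genes and 3 with the mean of log2(1 + count); leaving out single libraries gave 0 to 2 (2 without B-MF replicate 2). The cause was not tested. Ier5 changed sign, without being called, to 0.13 without clusters of other cell types, 0.0041 without B-MF replicate 2 and 0.013 without Mo-MF replicate 1, within a range of -0.11 to 0.01 over single libraries left out. Over the fixed lists, 43 genes were higher and 24 lower; centring gave 37 lower, and leaving out single libraries gave 32 to 57 higher and 17 to 37 lower (37 without B-MF replicate 1). Where a group was left with 1 library, that library was assumed to vary like the others. With log2(mean + 1), with the mean of log2(1 + count), without either Mo-MF library and with the block, limma gave all 10 genes the same SE, so the p-values rest on 1 spread for all genes.

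Over all genes, 1955 higher and 1458 lower became 2557 and 2529 with centring, 2271 and 2934 without B-MF replicate 1, 3859 and 1641 without B-MF replicate 2, 1129 and 913 without Mo-MF replicate 1, and 1103 and 1055 without Mo-MF replicate 2; the higher share of calls was 57.3%, and 43.6% and 70.2% without B-MF replicates 1 and 2. With the replicate block, 6 of the 10 genes were higher and 0 lower, and 2238 and 1670 genes were called. The differences between replicates 1 and 2 in B-MF and Mo-MF had r = 0.126 over genes, and with 2 pairs the samples share only a number. The median rho over pairs, 0.0944 in the cultures, was 0.101 as Pearson r, 0.105 on counts divided by the cell total and 0.0778 in monocyte/macrophage-like cells; that of the tumor, 0.144, was 0.182 in those cells. The shares of positive cells depend on the number of corrected counts per cell: drawing 5000 of them lowered that of Fosb in B-MF replicate 1 from 50.3% to 26.1% and that of Ier5 from 74.2% to 34.4%. Raw depth was not seen.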
